A study of Gallus gallus with 6 samples.

Results

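The miR-103/miR-107 and miR-130/miR-301/miR-454 families were examined in small RNA from the testes of Cobb500 breeder cocks. Members were found by name: after the species prefix and the marks of mismatches and end changes behind the name had been dropped, lines named miR-103, miR-107, miR-130, miR-301 or miR-454 were kept, with any letter, locus number, arm or species and without predicted (PC) names. Lines with the same sequence were counted once. This gave 15 distinct sequences on 21 lines under 17 names, among 1151 distinct sequences on 1302 lines in the whole table. The APS group (A) was fed 10 g of Astragalus polysaccharide per kg of a corn and soybean feed, and the control group (C) was fed the same kind of feed without it. All birds were Cobb500 cocks of 40 weeks, the tissue was whole testis, and each group had 3 libraries (A1 to A3 and C1 to C3). The question set by this design was whether a miRNA differed in level between the 2 diets.

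A miRNA guides an Argonaute protein to messenger RNAs, mainly through its seed, bases 2 to 8 counted from the 5′ end, and miRNAs with the same seed are expected to share many targets. miR-103 and miR-107 arise from introns of the pantothenate kinase (PANK) genes, whose enzymes start coenzyme A synthesis; in mouse they are known for lowering caveolin and insulin sensitivity in fat, and in human cells for repressing the miRNA-processing enzyme Dicer. miR-130, miR-301 and miR-454 share another seed and come from clustered precursors; in human fat cell precursors miR-130 is known for repressing the fat cell regulator PPARG.

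The seed divided the members into groups, so the 8 sequences that carried the seed GCAGCAT or AGTGCAA are shown first, as the deposited table writes them (T for U, 5′ to 3′), with the seed in capitals.
gga-miR-103-3p: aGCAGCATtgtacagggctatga
dre-miR-103: aGCAGCATtgtacagggctatgagt
gga-miR-107-3p: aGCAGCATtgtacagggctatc
gga-miR-130c-3p/gga-miR-130a-3p: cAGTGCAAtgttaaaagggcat
cgr-miR-130a-3p: cAGTGCAAtgttaaaagggcatca
cgr-miR-130b-3p: cAGTGCAAtgatgaaagggcat
aca-miR-301a-3p: cAGTGCAAtagtattgtcaaagc
sha-miR-454: tAGTGCAAtattgcttatagggttct

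The 3 sequences with GCAGCAT made up the miR-103/miR-107 group and the 5 with AGTGCAA the miR-130/miR-301/miR-454 group. No other sequence of the table had either seed. gga-miR-103-3p and gga-miR-107-3p were identical over their first 21 bases and differed by G22C (miR-103-3p base first, positions from the 5′ end), so reads of 21 bases or fewer cannot be told apart between them. The line named dre-miR-103 held the 23 bases of gga-miR-103-3p with an extension at the 3′ end to 25 bases, and cgr-miR-130a-3p held the 22 bases of gga-miR-130c-3p/gga-miR-130a-3p extended to 24. The sources do not state how reads of such length variants were divided between lines, and the values of these 5 sequences are uncertain to that extent. Against gga-miR-130c-3p/gga-miR-130a-3p, cgr-miR-130b-3p differed by T11A and A13G, and aca-miR-301a-3p shared only the first 9 bases. One sequence stood under 2 chicken names, gga-miR-130c-3p without a mark and gga-miR-130a-3p with a marked mismatch of A10G (database base first), and is called miR-130c/a-3p here.

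The other 7 members were 5p arms, the opposite strand of the precursor hairpin, and are shown because they let the arms of one hairpin be compared; capitals again mark bases 2 to 8.
aca-miR-301a-5p: gCTCTGACtttattgcactact
gga-miR-301b-5p: gCTCTGAGtttattgcactact
gga-miR-130a-5p/gga-miR-130c-5p: gCCCTTTTtctgttgtactact
cgr-miR-130a-5p: gCTCTTTTcacattgtgctact
gga-miR-130b-5p: cCTCCTTCcctgttgcact
gga-miR-107-5p: aGCTTCTTtacagtgctgccttgt
gga-miR-103-2-5p: gGCTTCTTtacagtgctgccttgt

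None of these carried either family seed, and aca-miR-301a-5p and gga-miR-301b-5p differed only by C8G, gga-miR-103-2-5p and gga-miR-107-5p only by G1A. The names mark mismatches (database base first): C8G for gga-miR-301b-5p, C11T for aca-miR-301a-5p, A1G for gga-miR-103-2-5p, T16C for gga-miR-107-5p, T5C for gga-miR-130b-5p and A10C for gga-miR-130c-5p. The line aca-miR-301a-5p therefore has the database bases of gga-miR-301b-5p. Likewise, the line gga-miR-107-5p has those of gga-miR-103-2-5p, apart from end changes. The hairpins of these sequences are thus uncertain. The unmarked name of gga-miR-130a-5p/gga-miR-130c-5p is gga-miR-130a-5p, while that of miR-130c/a-3p is gga-miR-130c-3p. Whether both come from the same hairpin is likewise uncertain. In each of the 7, the window of 7 bases from base 13 pairs with the seed of its own family's 3p arm at 7 of 7 positions if G:U pairs are allowed, and at 5 to 7 positions by Watson-Crick pairs alone. With the other family's seed, the best window paired at 5 or 6 positions with G:U pairs and at 4 or 5 without. For cgr-miR-130a-5p the Watson-Crick pairs were 5 with either seed.

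The exact complement of the miR-130 seed, TTGCACT, was found on the given strand in 10 of the 1151 sequences (0.869%), of which 3 were members (aca-miR-301a-5p, gga-miR-301b-5p and gga-miR-130b-5p). That of the miR-103 seed was found in 4 sequences (0.348%) and in 0 members. In the RefSeq gene table (assembly bGalGal1.mat.broiler.GRCg7b, used for names and neighbours only), MIR103A1, MIR103A2 and MIR107 lay inside PANK3, PANK2 and PANK1. MIR130A, MIR130B, MIR301A and MIR454 were neighbours, and MIR130C and MIR301B lay together inside SKA2P1. Of the 15 members 8 had chicken names, and the 7 others had names of other species and were not placed in the chicken genome by the authors, among them both aca-miR-301a arms, cgr-miR-130b-3p and sha-miR-454.

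Library totals were 576714 to 721285 counts in A and 497286 to 743187 counts in C. Levels are given in CPM, the unit for a count relative to the total of its library over all sequences of the table, with totals scaled by TMM (trimmed mean of M values). Whether different sequences were recovered equally well was not tested, so orders and ratios of different sequences compare counts only. A count of 0 allows up to 3 counts, or 4.46 to 5.03 CPM in A and 4.64 to 5.47 CPM in C, for counting error only. Of 774 sequences tested with edgeR's quasi-likelihood test, 0 (0%) had a Benjamini-Hochberg adjusted p under 0.05 and 46 (5.94%) an unadjusted p under 0.05. The unadjusted count was 23 with the Wald test of DESeq2. It was 52 with limma on log2 of the authors' normalized values and 58 with limma after quantile normalization. The gonad marker miR-202 stood at 40039.7 to 56222 CPM in A and 44239 to 66467 CPM in C. Libraries A2 and C2 were the highest of their groups for the smooth muscle (miR-143, miR-145), vessel (miR-126) and fibroblast (miR-199, miR-214) lists, so the fit was repeated with both left out. The summed germ cell list (miR-34b, miR-34c and miR-449, 12 sequences, 10 of them tested) was 1206 to 1386 CPM in A and 821 to 997 CPM in C, and the white cell list (miR-142, miR-223, miR-150 and miR-146) 34065 to 36392 CPM in A and 26841 to 32140 CPM in C. Neither list overlapped between the diets, while the other 8 lists (gonad, red cells, vessel, smooth muscle, fibroblasts, striated muscle, epithelium and neural) did. Of all single sequences tested, 13.2% did not overlap in CPM. The germ cell sum was mostly gga-miR-34b-5p (732.9 CPM) and the white cell sum mostly gga-miR-146c-5p (25970.5 CPM). Of the 10 tested germ cell sequences, 7 had log2 fold changes above 0 and 3 below, and 1 an unadjusted p under 0.05 by edgeR. Of the 13 tested white cell sequences, 8 were above 0 and 5 below, and 0 had such a p. The abundant gga-miR-146c-5p was at 0.22. Among the 5 below 0 were gga-miR-142-3p (-0.03, SE 0.35), gga-miR-142-5p (-0.16, SE 0.31) and aca-miR-150-5p (-0.35, SE 0.20). The estimates of the white cell list thus had both signs, with a median of 0.11. The part of germ and white cells in the member levels was not tested.

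Together the members took 1.13%, 0.881% and 1.10% of the counts of A1, A2 and A3, against 1.05%, 0.835% and 1.02% in C1, C2 and C3. The share was lowest in A2 and C2 and overlapped between the diets. One sequence, gga-miR-103-3p, held 66.3% of the 36662 member counts. The 3p arms of gga-miR-103, gga-miR-107 and gga-miR-130c (named also gga-miR-130a, with the marked mismatch A10G) averaged 6613, 927 and 1960.1 CPM over the 6 libraries. In full, the order of levels was gga-miR-103-3p (6613 CPM), miR-130c/a-3p (1960.1 CPM), gga-miR-107-3p (927 CPM), aca-miR-301a-3p (345 CPM), aca-miR-301a-5p, dre-miR-103 and gga-miR-130a-5p/gga-miR-130c-5p. Neighbours in this order did not overlap in any library down to dre-miR-103, the closest being aca-miR-301a-5p, with a lowest library of 44.5 CPM, above dre-miR-103, with a highest of 41.9 CPM. dre-miR-103 and gga-miR-130a-5p/gga-miR-130c-5p overlapped and cannot be ordered. Only 7 members had at least 10 counts in each group, and 9 of the 15 passed the filter on low values and were tested.

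No tested member was found to differ between the diets beyond the spread of the libraries, and the 6 members below the filter allow no such statement. Of the 9 tested members, 0 had an adjusted p under 0.05 by edgeR and 0 an unadjusted p under 0.05 (5.94% of all tested sequences did), and the counts were also 0 with DESeq2 and with limma. Likewise 0 of 9 had CPM values that did not overlap between the diets, where 13.2% of all tested sequences did not overlap. Their log2 fold changes of A over C had a median of 0.03, with 6 above and 3 below 0, against a median of -0.08 and 45.1% above 0 over all tested sequences. The median size of the change, whatever its sign, was 0.18 for members, 0.42 for all tested sequences and 0.19 for the 179 sequences with a mean of at least 100 CPM. Only 4 of the 9 tested members were among those 179, with changes of 0.13, 0.03, 0.03 and 0.23, so 0.18 and 0.19 describe unlike sets. In whole tissue, fewer cells of a type and less RNA per cell cannot be told apart in any of these values.

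**Figure D1:**
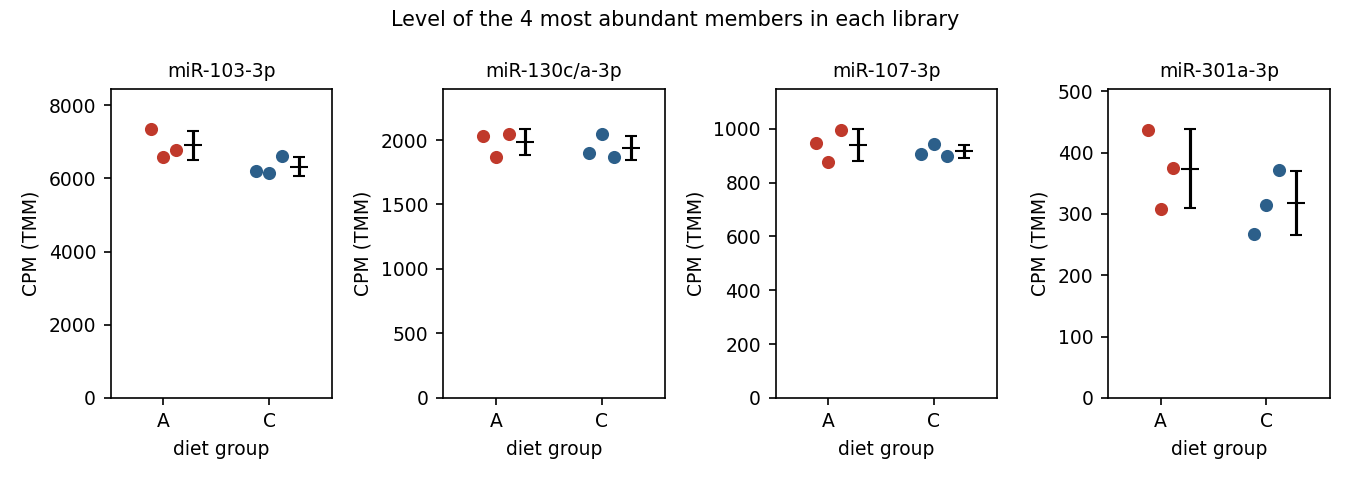
CPM (TMM-scaled, linear axis from 0) of the 4 most abundant members in each library, with the A libraries in red left of the C libraries in blue; the bar beside each group is the mean ± SD of 3 libraries. In each panel the A and C points overlap, from 6158 to 7341 CPM for miR-103-3p down to 267 to 437 CPM for miR-301a-3p.

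In the miR-103/miR-107 group, gga-miR-103-3p had 7341, 6594 and 6775 CPM in A1, A2 and A3, against 6200.1, 6158 and 6613 CPM in C1, C2 and C3. Library A1 was highest, and only C3, just above A2, made the diets overlap. The means were 6903 ± 390.0 CPM in A and 6324 ± 251 CPM in C (SD, n = 3 each), with a log2 fold change of 0.13 (SE 0.13, 95% interval -0.17 to 0.42) and an adjusted p of 0.815 by edgeR. In the authors' normalized values the same sequence did not overlap, with 4411, 4069 and 4037 in A and 3721, 3935 and 4029 in C. It was the only one of the 9 tested members without overlap there, where 12.9% of all tested sequences did not overlap and 5.3% did so with A higher. The direction was kept in 19 of 20 alternatives, among them 0.14 with A2 and C2 left out, but not with quantile normalization, which gave -0.08.

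gga-miR-107-3p, which shares the first 21 bases with it, had 947, 875 and 994 CPM in A1, A2 and A3, against 906, 943 and 900.2 CPM in C1, C2 and C3. A2 was below all C libraries, and A1 and A3 were above them. The log2 fold change was 0.03 (SE 0.16, 95% interval -0.32 to 0.39, adjusted p of 0.964 by edgeR). As a fold, that interval ran from 0.801 to 1.31. Its sign turned under 4 of 20 alternatives, and the value was 0.10 with A2 and C2 left out. The extended form, dre-miR-103, had 23, 22 and 20 counts in A1, A2 and A3 and 17, 14 and 23 counts in C1, C2 and C3, a log2 fold change of 0.12 (SE 0.34, adjusted p of 0.939 by edgeR). C3 equalled A1 in counts, and the sign turned to -0.10 without C2 and to -0.09 with both A2 and C2 left out.

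In the miR-130/miR-301/miR-454 group, miR-130c/a-3p had 2032, 1865 and 2049 CPM in A1, A2 and A3, against 1903, 2044 and 1868 CPM in C1, C2 and C3. A2 and C3 were nearly equal at the low end, as were A3 and C2 at the high end. The log2 fold change was 0.03 (SE 0.15, 95% interval -0.30 to 0.36, adjusted p of 0.964 by edgeR), and its sign turned with quantile normalization, with the valid reads as library sizes and with lines summed by name. With A2 and C2 left out it was 0.11.

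aca-miR-301a-3p, the second sequence of this seed, had 437, 309 and 375 CPM in A1, A2 and A3, against 267, 314 and 372 CPM in C1, C2 and C3. It was the most variable of the 4 abundant members, with A1 highest and C1 lowest, and A2 was below both C2 and C3. The means were 374 ± 64.4 CPM in A and 317 ± 52.6 CPM in C (SD, n = 3 each), a log2 fold change of 0.23 (SE 0.22, 95% interval -0.25 to 0.72) with an adjusted p of 0.809 by edgeR. The direction was kept in all 19 alternatives that could be fitted, from 0.11 without A1 to 0.36 without C3, and was 0.35 with A2 and C2 left out.

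The other sequences with AGTGCAA were near the limit of counting. cgr-miR-130a-3p had 0, 3 and 0 counts in A1, A2 and A3 and 3, 2 and 1 counts in C1, C2 and C3, all at or below 3 counts, and a log2 fold change of -1.04 with an SE of 1.29 (adjusted p of 0.840 by edgeR). Without A2, which held all 3 counts in A, the fitted log2 fold change was -4.15 (unadjusted p of 0.0722 by edgeR, its lowest in any alternative), and with A2 and C2 left out it was -4.18. Both rest on 0 counts in A, so these fitted values depend on the prior count and are no bounds. sha-miR-454 had 1 count in each of A2 and A3 and 0 in the other 4 libraries, and cgr-miR-130b-3p had 1 count, in C2; neither was tested, and no difference was detectable at this depth.

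**Figure D2:**
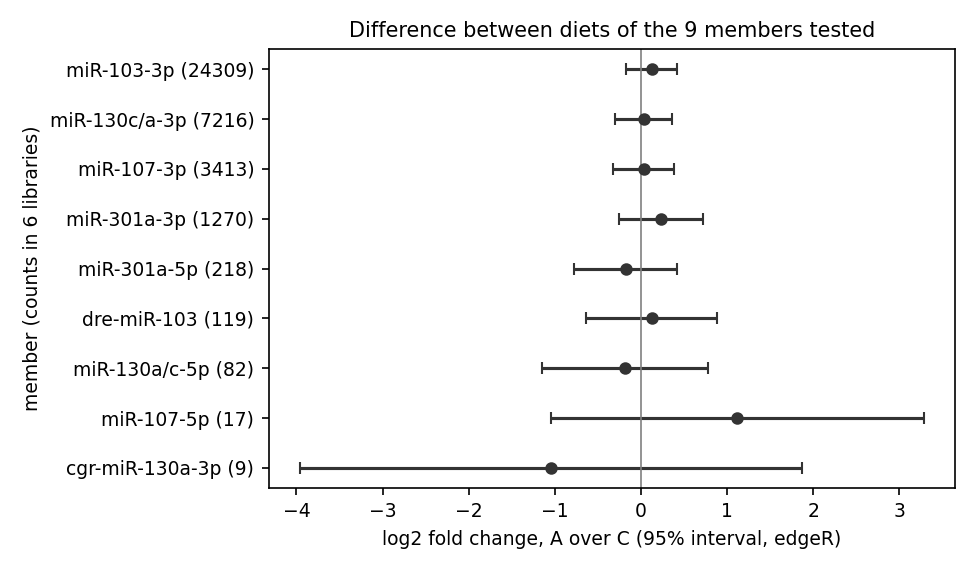
Log2 fold change of A over C (horizontal axis, edgeR, with the 95% interval) for the 9 members tested, ordered from top to bottom by their counts in all 6 libraries (in brackets). All 9 intervals include 0, and they widen as counts fall, from -0.17 to 0.42 for miR-103-3p to -3.96 to 1.87 for cgr-miR-130a-3p.

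Among the 5p arms, aca-miR-301a-5p was the most abundant, with 67.5% of their 323 counts. It had 57.0, 44.5 and 65.5 CPM in A1, A2 and A3, against 60.9, 69.5 and 58.3 CPM in C1, C2 and C3, a log2 fold change of -0.18 (SE 0.27, adjusted p of 0.883 by edgeR). A1 and A2 were below all C libraries and A3 was above C1 and C3, and the value was 0.04 with A2 and C2 left out. gga-miR-130a-5p/gga-miR-130c-5p had 14, 12 and 14 counts in A1, A2 and A3 and 6, 19 and 17 counts in C1, C2 and C3, a log2 fold change of -0.19 (SE 0.43, adjusted p of 0.937 by edgeR). The C libraries lay on both sides of all A libraries, and without C3 the value was 0.04, with A2 and C2 left out 0.09.

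gga-miR-107-5p had 7, 2 and 3 counts in A1, A2 and A3 and 2, 3 and 0 counts in C1, C2 and C3. Library A1 held 7 of the 12 counts in A; the log2 fold change was 1.12 (SE 0.96, adjusted p of 0.777 by edgeR). It ranged from 0.41 without A1 to 1.68 without C2 when each library was left out, and was 2.02 with A2 and C2 left out. gga-miR-103-2-5p had 4 counts in all (1 in A2, 2 in A3 and 1 in C2), cgr-miR-130a-5p 1 count (in C1), gga-miR-130b-5p 0.5 counts (in A2) and gga-miR-301b-5p 0.545 counts, since a read with several lines was divided between them. These 4 were not tested.

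The 2 seed groups were then compared as sums, which are described without a test. The miR-103/miR-107 sum was 4970, 4887 and 5242 counts in A1, A2 and A3 and 3987, 4609 and 4146 counts in C1, C2 and C3. In CPM it was 8327, 7503 and 7799 in A and 7136, 7122 and 7555 in C, with means of 7876 ± 417 in A and 7271 ± 246 in C (SD, n = 3 each). C3 lay above A2, and the log2 ratio of the means was 0.12. In the authors' normalized values the sum was 5003, 4629 and 4647 in A and 4283, 4552 and 4603 in C, which did not overlap, with a log2 ratio of 0.09. Most of this sum (87.3% of its counts) was gga-miR-103-3p, which did not overlap there either. Of all tested sequences, 12.9% did not overlap in these values.

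The miR-130/miR-301/miR-454 sum was 1474, 1420 and 1630 counts in A1, A2 and A3 and 1215, 1529 and 1230 counts in C1, C2 and C3. In CPM it was 2469.5, 2180.0 and 2425 in A and 2175, 2363 and 2241 in C, with means of 2358 ± 156 in A and 2259.6 ± 95.3 in C (SD, n = 3 each) and a log2 ratio of 0.06. A1 and A3 were above the C libraries and A2 was among them, and with A2 and C2 left out the log2 ratio was 0.15. The authors' normalized sums also overlapped, with 1484, 1345 and 1445 in A and 1305, 1510.0 and 1366 in C, a log2 ratio of 0.03.

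Each group was carried by one sequence: gga-miR-103-3p gave 87.3% of the 27841 counts of the miR-103/miR-107 group and gga-miR-107-3p 12.3%, while miR-130c/a-3p gave 84.9% of the 8498 counts of the miR-130/miR-301/miR-454 group and aca-miR-301a-3p 14.9%. Within each library, which needs no scaling between libraries, the miR-130/miR-301/miR-454 sum was 0.297, 0.291 and 0.311 times the miR-103/miR-107 sum in A1, A2 and A3 and 0.305, 0.332 and 0.297 times in C1, C2 and C3. Put the other way, the miR-103/miR-107 group had 3.01 to 3.44 times the counts of the other group in every library. Whether both groups were recovered equally well was not tested. The ratio overlapped between the diets (0.299 ± 0.0105 in A and 0.311 ± 0.0184 in C, SD, n = 3 each, log2 ratio -0.06), and the log2 ratio was 0.01 with A2 and C2 left out.

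Ratios of 2 members within a library were compared for the 4 of 9 pairs in which both sequences had at least 10 counts in each library. Each was tested by a two-sided exact permutation test of the log2 ratio over 20 assignments of the 6 libraries, whose smallest possible p is 0.1, with Benjamini-Hochberg adjustment over the 4 pairs. Per 100 counts of gga-miR-103-3p there were 12.9, 13.3 and 14.7 counts of gga-miR-107-3p in A1, A2 and A3, against 14.6, 15.3 and 13.6 in C1, C2 and C3. A1 and A2 were below the C libraries and A3 among them, a difference in log2 ratio of -0.09 (exact p = 0.3, adjusted 0.533). Of the counts of the 2 sequences together, gga-miR-107-3p took 11.4% in A1 (95% Wilson interval 10.6 to 12.3) and 13.3% in C2 (12.3 to 14.3), the lowest and the highest library.

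Per 100 counts of miR-130c/a-3p there were 21.5, 16.5 and 18.3 counts of aca-miR-301a-3p in A1, A2 and A3, against 14.0, 15.3 and 19.9 in C1, C2 and C3. C1 and C2 were below all A libraries and C3 was second only to A1, a difference of 0.20 (exact p = 0.4, adjusted 0.533). The extended dre-miR-103 made up 0.525, 0.512 and 0.439 counts per 100 of gga-miR-103-3p in A1, A2 and A3, against 0.491, 0.351 and 0.634 in C1, C2 and C3. The C libraries spread more widely than the A libraries and enclosed them, a difference of 0.04 (exact p = 0.8, adjusted 0.800). That difference was -0.01 without A1, -0.18 without C2 and -0.22 with A2 and C2 left out.

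**Figure D3:**
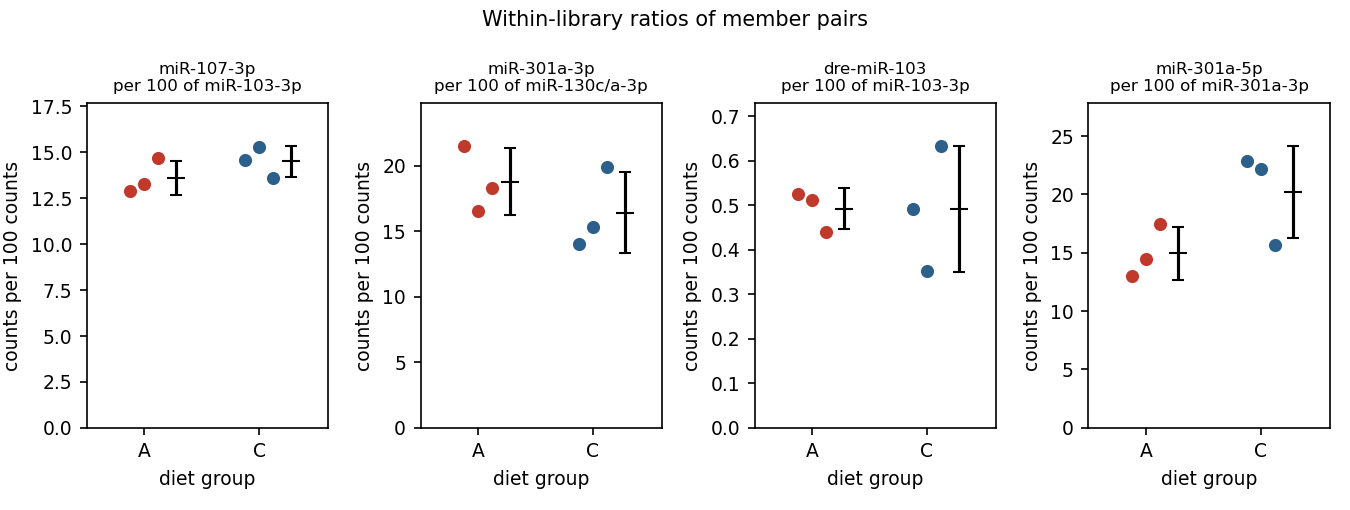
Counts of 1 member per 100 counts of another in the same library (linear axes from 0), for the 4 pairs tested, with the A libraries in red left of the C libraries in blue and the mean ± SD of 3 libraries beside each group. A and C overlap in all 4 panels. For miR-301a-5p per 100 of miR-301a-3p, C3 at 15.7 lies between A2 at 14.4 and A3 at 17.5.

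The largest of these differences was between the 5p and 3p sequences named aca-miR-301a. The 5p sequence has the database bases of gga-miR-301b-5p, so whether both come from one hairpin is uncertain. Per 100 counts of aca-miR-301a-3p there were 13.0, 14.4 and 17.5 counts of aca-miR-301a-5p in A1, A2 and A3, against 22.8, 22.2 and 15.7 in C1, C2 and C3. C1 and C2 were above all A libraries and C3 was below A3, a difference in log2 ratio of -0.42 (exact p = 0.2, adjusted 0.533), with a range of -0.60 to -0.33 when each library was left out in turn. The 5p share of both sequences was 11.5% in A1 (95% Wilson interval 8.37 to 15.7) and 18.6% in C1 (13.6 to 24.8). These were the lowest and the highest library, with intervals that overlapped. The other pairs of 5p and 3p names were far less even. Among them the hairpin of gga-miR-107-5p is uncertain, since it has the database bases of gga-miR-103-2-5p apart from end changes. For the miR-130 pair the unmarked names are gga-miR-130a-5p and gga-miR-130c-3p, so a shared hairpin is also uncertain. Over all 6 libraries there were 1.14 counts of gga-miR-130a-5p/gga-miR-130c-5p per 100 of miR-130c/a-3p, 0.498 of gga-miR-107-5p per 100 of gga-miR-107-3p and 0.0165 of gga-miR-103-2-5p per 100 of gga-miR-103-3p. These pairs, and cgr-miR-130b-3p and sha-miR-454 over miR-130c/a-3p (0.0139 and 0.0277 per 100), were too rare to be tested.

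The abundant members were also described by their spread over all 6 libraries, pooled over the diets. gga-miR-107-3p and miR-130c/a-3p had coefficients of variation of 4.56% and 4.62%, the third and the fourth smallest of the 179 sequences with at least 100 CPM, whose median was 19.2%. gga-miR-103-3p ranked 11 from the smallest (6.54%), and aca-miR-301a-3p was in the middle at rank 76 (17.6%). Counting error adds more to the spread of rarer sequences, and neither the ranks nor the median were adjusted for level. The highest library was 1.14 times the lowest for gga-miR-107-3p, 1.10 times for miR-130c/a-3p, 1.19 times for gga-miR-103-3p and 1.64 times for aca-miR-301a-3p. The ranks depended on the scaling: without TMM they were 19, 11, 23 and 96 for gga-miR-107-3p, miR-130c/a-3p, gga-miR-103-3p and aca-miR-301a-3p, and with the valid reads as library sizes 13, 21, 7 and 44. In the same order they were 3, 2, 5 and 69 with the size factors of DESeq2. With the authors' constants as library sizes they were 4, 6, 7 and 67.

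**Figure D4:**
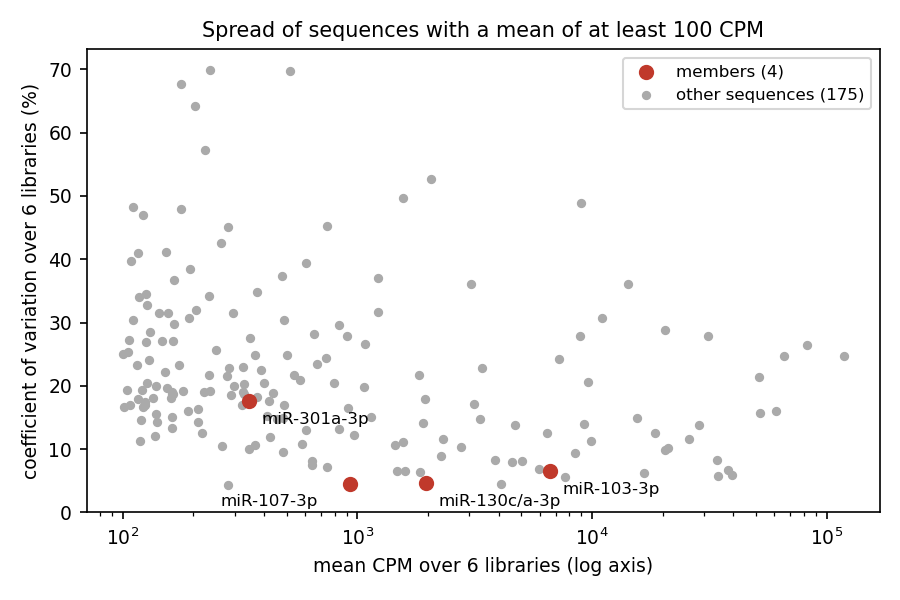
Coefficient of variation over the 6 libraries (vertical axis, %) against mean CPM (horizontal log axis) for the 179 sequences with at least 100 CPM, with the 4 members in red and the 175 others in grey. gga-miR-107-3p (4.56%), miR-130c/a-3p (4.62%) and gga-miR-103-3p (6.54%) lie at the lower edge of the cloud, and aca-miR-301a-3p (17.6%) lies within it.

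The sequences most like each seed group over the 6 libraries were sought by the root mean square difference of centred log2 CPM, with 175 others of at least 100 CPM as candidates. Closest to the miR-103/miR-107 sum were gga-miR-29b-3p (0.0575), csa-let-7d (0.0602) and gga-miR-20b-5p (0.0654), where the median candidate was at 0.267. Closest to the miR-130/miR-301/miR-454 sum were gga-miR-33-5p (0.0666), csa-let-7d (0.0680) and gga-miR-29b-3p (0.0762), with a median of 0.270. The 2 seed groups differed from each other by 0.0627, and 2 of the 175 candidates were closer to miR-103/miR-107 than the miR-130/miR-301/miR-454 sum was. All these points share the same 6 libraries and scaling, and small spread alone brings sequences close by this measure.

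Both seeds are 1-base shifts of the seeds of other families, which were set beside them by a list. The first 7 bases of the miR-103/miR-107 group, AGCAGCA, are the seed of miR-15 and miR-16, known in mammals for holding back cell division. From base 1 this motif was found in 3 sequences of the table (0.261% of 1151), all of them members, and from base 2 in 9 others (0.782%), led by gga-miR-16-5p; the shift is seen when it is set under gga-miR-103-3p.
gga-miR-16-5p: tAGCAGCAcgtaaatattggtg

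The first 7 bases of 4 members of the miR-130/miR-301/miR-454 group (all but sha-miR-454), CAGTGCA, are likewise the seed of miR-148 and miR-152, known in human cells for repressing the DNA methyltransferase genes. From base 1 this motif was in 4 sequences (0.348%), all members, and from base 2 in 3 others (0.261%), led by gga-miR-148a-3p, in which capitals again mark bases 2 to 8.
gga-miR-148a-3p: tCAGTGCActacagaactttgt

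The listed miR-15/miR-16 family summed to 10682 to 11481 CPM in A and 11443 to 12167 CPM in C, and gga-miR-16-5p averaged 7642 CPM, near the level of gga-miR-103-3p. Of its 13 listed sequences, 7 had the seed AGCAGCA and 10 were tested. Of the tested ones, 6 had log2 fold changes above 0 and 4 below. At an unadjusted p under 0.05 by edgeR 1 passed, being higher in A, where 5.94% of all tested sequences passed. The most abundant ones, gga-miR-16-5p and gga-miR-15b-5p, were among those below 0, at -0.10 and -0.13. The miR-148/miR-152 family summed to 36785 to 41468 CPM in A and 34276 to 41402 CPM in C, far above the miR-130/miR-301/miR-454 sum, and gga-miR-148a-3p alone averaged 34271 CPM. Its 3 tested sequences had 2 log2 fold changes above 0 and 1 below, and 0 passed an unadjusted p under 0.05 by edgeR. Both families overlapped between the diets, as both seed groups did in CPM.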

How the data were processed

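Small RNA of 6 testes (3 A, 3 C) was analysed. Per the submitters' processing notes the authors used ACGT101-miR 4.2, which trimmed and filtered reads and matched them to miRBase hairpins with 1 mismatch allowed. A genome build is in none of the sources used here. Raw values as deposited by the authors are expected counts, since a read with several lines was divided between them: 87.3% of values were whole, and 94.3% after summing per distinct sequence (within 0.001). The authors' normalized values, a signal, were the raw count times 1 constant per library. Columns of group means, fold changes and p-values hold the authors' own comparisons and were not used, 3 lines were not analysed here, and 0 columns of single libraries were left unmapped.

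Lines of 1 sequence were summed and rounded, and those whose normalized values averaged at least 1 in A or C were tested with edgeR 4.0.16 (TMM, quasi-likelihood, R 4.3.3) and Benjamini-Hochberg adjustment over 774 sequences. Alternatives used DESeq2 1.42.0 and limma 3.58.1. Descriptions and figures used matplotlib 3.10.9, numpy 2.4.6, pandas 2.3.3 and scipy 1.17.1 under Python 3.11.15. The fit was also run on simulated counts, with a smaller spread between libraries than in these data. Its recovery was read only for abundant sequences, so it says nothing about the rare members. Libraries held 497286 to 743187 counts in all, which sets the limit for rare sequences, while the spread between libraries sets the precision of abundant ones. Wilson intervals and the limits for a count of 0 cover counting error only, as PCR reads carried no molecular tags, and edgeR's intervals include the spread between libraries. The labels say that the 6 testes came at random from 3 replicates, so p-values measure the spread between these samples, and they name no batch. Replicates of a group differed by more than sampling noise, with a chi-square of 32.4 to 101 per degree of freedom.

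Every member is accounted for. Beside them are named, for each seed group, the 3 sequences of at least 100 CPM most like its sum, and up to 2 abundant members of the related families. The most abundant sequences of the germ cell and white cell lists are also named. The members and lists were chosen with earlier results of these data known.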

Additional observations from a re-analysis of the deposited data

How the results depend on the processing

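In every alternative tried, 0 members had an unadjusted p under 0.05, and 0 sequences had an adjusted p under 0.05 except with no filter on low values, where 12 of 1123 did, none of them members. At an unadjusted p under 0.05 there were 46 sequences by edgeR, 84 with no filter and 23 with the Wald test of DESeq2. Correlations of deviations were 0.02, 0.47 and -0.02 for same-numbered libraries and -0.48 to 0.42 for the others. Deviations of 3 libraries sum to 0 within a group, so these values cannot decide whether the numbers pair the samples. A replicate block gave 60 sequences at an unadjusted p under 0.05 by edgeR, 0 after adjustment and 0 members. Leaving out each library in turn kept both counts at 0 and gave log2 ratios of A over C of 0.08 to 0.14 for the miR-103/miR-107 sum, 0.03 to 0.08 for the miR-130/miR-301/miR-454 sum and -0.09 to -0.01 for the ratio of the sums. The differences in log2 ratio were then -0.15 to -0.05 for gga-miR-107-3p over gga-miR-103-3p and 0.10 to 0.35 for aca-miR-301a-3p over miR-130c/a-3p. They were -0.18 to 0.24 for dre-miR-103 over gga-miR-103-3p and -0.60 to -0.33 for aca-miR-301a-5p over aca-miR-301a-3p. The difference for dre-miR-103 turned without A1 (-0.01) and without C2 (-0.18). The authors' normalized values for the sums, and leaving out both A2 and C2, were added after seeing the data. Leaving out both gave 0.15 for the miR-130/miR-301/miR-454 sum, 0.015 for the ratio of the sums, -0.22 for dre-miR-103 over gga-miR-103-3p, and log2 fold changes of 0.039 for aca-miR-301a-5p, -0.087 for dre-miR-103 and 0.085 for gga-miR-130a-5p/gga-miR-130c-5p. Member signs also turned for gga-miR-103-3p with quantile normalization (-0.078), for miR-130c/a-3p with the valid reads (-0.018), quantile normalization (-0.034) and lines summed by name (-0.026), and for gga-miR-107-3p with the valid reads (-0.012), quantile normalization (-0.017), lines summed by name (-0.022) and without A3 (-0.0099, the lowest of -0.0099 to 0.052 when each library was left out). They turned for dre-miR-103 without C2 (-0.10, of -0.10 to 0.39) and for gga-miR-130a-5p/gga-miR-130c-5p without C3 (0.041, of -0.53 to 0.041). Quantile normalization moved the median of all sequences by 0.10, and relative to that median gga-miR-103-3p was at -0.10, against 0.21 with TMM; the cause was not tested for any of these. With fewer than 10 counts over the 6 libraries, 7 members are limited by depth.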
